A study of Homo sapiens with 6 samples.

Results

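CDK inhibitors are proteins that bind and block the cyclin-dependent kinases, the enzymes that drive a cell from one phase of its division cycle to the next. The 8 genes described here were chosen by symbol: CDKN1A, CDKN1B and CDKN1C of the CIP/KIP family, CDKN2A, CDKN2B, CDKN2C and CDKN2D of the INK4 family, and CDKN3, which encodes a phosphatase of CDKs. All 8 were present among the 21173 genes of the counts table, and all 8 passed the filter on low counts that left 14431 genes for testing. RNA had been sequenced from TPC1, an established line of human papillary thyroid cancer. The 6 libraries were 3 of cells with a vector (genotype WT in the labels) and 3 of cells overexpressing TFCP2L1 (genotype TFCP2L1 OE), a transcription factor of the CP2 family. The labels name no construct, promoter, clone or time for the overexpression. Nothing in them says that the replicates came from separate cultures, so the p-values below speak only to the spread among these libraries, part or all of which may be technical.

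CIP/KIP proteins bind cyclin-CDK complexes broadly, with their strongest inhibition on CDK2 complexes. INK4 proteins bind CDK4 and CDK6 and keep them from D-type cyclins, which leaves the retinoblastoma protein unphosphorylated and its E2F partners silent. In many carcinomas the INK4 locus on the short arm of chromosome 9 is deleted or silenced, and loss of p27, the product of CDKN1B, is a known feature of thyroid tumours. These are background statements about the proteins. The libraries measured RNA only, and much of the control of p21 and p27 is known to act on protein stability.

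Promoter sequences are shown for the members whose change in RNA stayed called with any single library left out, CDKN1A, CDKN2B and CDKN3. Each is 300 bases on RefSeq's GRCh38.p14, from 250 bases before a RefSeq start site to 50 after, written 5′ to 3′ on the gene's strand. These start sites lie 2254 (CDKN1A), 58 (CDKN2B) and 158 bases (CDKN3) downstream of the first base of the gene in GENCODE v29, from which the gene positions given further on are taken. Capitals mark matches, on either strand, to short motifs. In CDKN1A (chr6:36678464-36678763, plus strand) the first capital run is, on the opposite strand, a CCAG followed after 6 bases by CCGG, a loose form of the paired sites known for CP2 proteins, and the later ones are GGGCGG, the box bound by SP1. In CDKN2B (chr9:22009256-22009555, minus strand) the capitals are GGGCGG matches. In CDKN3 (chr14:54396757-54397056, plus strand) they are the CCAAT box and TTTGAA, the cell cycle homology element of many genes of late division.
CDKN1A: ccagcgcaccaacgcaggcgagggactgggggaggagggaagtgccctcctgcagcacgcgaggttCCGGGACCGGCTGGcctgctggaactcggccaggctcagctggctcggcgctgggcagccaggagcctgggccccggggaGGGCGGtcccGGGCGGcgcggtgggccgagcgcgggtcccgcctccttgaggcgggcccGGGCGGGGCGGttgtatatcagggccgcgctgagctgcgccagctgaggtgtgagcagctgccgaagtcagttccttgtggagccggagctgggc
CDKN2B: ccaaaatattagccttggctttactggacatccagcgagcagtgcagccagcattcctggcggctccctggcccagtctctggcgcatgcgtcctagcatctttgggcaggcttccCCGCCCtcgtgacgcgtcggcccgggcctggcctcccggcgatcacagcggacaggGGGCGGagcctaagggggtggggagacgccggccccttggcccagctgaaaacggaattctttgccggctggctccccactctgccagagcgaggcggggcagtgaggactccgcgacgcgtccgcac
CDKN3: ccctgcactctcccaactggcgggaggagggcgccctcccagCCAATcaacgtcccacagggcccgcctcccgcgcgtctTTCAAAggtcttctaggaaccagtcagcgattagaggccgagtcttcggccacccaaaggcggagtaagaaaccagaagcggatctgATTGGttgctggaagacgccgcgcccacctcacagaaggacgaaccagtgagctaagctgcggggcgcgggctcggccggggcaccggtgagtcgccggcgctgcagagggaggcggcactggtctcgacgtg

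RefSeq's promoter table matched 7 of the 8 members by symbol, with 10 start sites, and held no entry for CDKN1C. Paired CP2 sites, searched as CCAG followed after 6 bases by CCAG or CCGG on either strand, were found in 7.39% of all 35116 promoters of the table. Among the 10 start sites of the members, 1 held such a match, that of CDKN1A, beginning 184 bases before the start. GGGCGG was found in 45% of all promoters and in 7 of the 10 windows, which belong to 6 members (all matched ones but CDKN3), among them 4 times in CDKN1A (the last 2 matches overlap) and 2 times in CDKN2B. TTTGAA was found in 15.2% of all promoters and in 1 of the 10 windows, and CCAAT in 34.6% and in 4 of 10, those of CDKN1B, CDKN2C, CDKN2D and CDKN3. CDKN3 held 1 TTTGAA match, 170 bases before its start, and 2 CCAAT matches, 208 and 83 bases before it. The E2F site, searched as TTTCCCGC, TTTCGCGC, TTTGCCGC or TTTGGCGC, was found in 3.31% of all promoters and in none of these 10 windows. A match is a stretch of letters and no evidence of binding, and the windows cover only the region next to each start.

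Library totals ran from 37928516 to 38987434 reads. TFCP2L1 itself had at most 1 read in any vector library and 12333 to 13885 reads in the libraries of TFCP2L1 cells, which matched the labels. The thyroid lineage factor PAX8 was at 544 ± 24.4 CPM (SD, n = 3) in vector cells and 478 ± 47.4 in TFCP2L1 cells (CPM, which are reads relative to a TMM-normalized library size). FOXE1, another, was at 17.5 ± 2.34 and 14 ± 2.31 CPM. Neither was called (edgeR adjusted p = 0.163 and 0.149), but both were called lower without TFCP2L1 replicate 3 (0.0222 and 0.0202). Of 9 thyroid epithelial markers with a row in the table, 3 (SLC5A5, KRT19 and EPCAM) were under 1 CPM in every library, and the summed level of the 9 ran from 754 to 776 CPM in vector and from 654 to 736 in TFCP2L1 libraries. Of 4 leukocyte markers with a row, 3, PTPRC included, were under 1 CPM in every library, and the sum ran from 63.9 to 75.9 CPM in vector and from 96.2 to 122 in TFCP2L1 libraries. Nearly all of it was CD68, a lysosomal protein not restricted to leukocytes, which rose (log2 fold change 0.63 ± 0.10; edgeR adjusted p = 0.000423). The 6 fibroblast markers summed to 9.67 to 10.5 CPM in vector and 7.62 to 8.63 CPM in TFCP2L1 libraries, so that the groups did not overlap. COL1A1 (5.02 ± 0.327 and 3.69 ± 0.400 CPM; edgeR adjusted p = 0.127) and LUM (1.28 ± 0.616 and 0.950 ± 0.338 CPM; 0.575) had the smallest p there. The 4 endothelial markers summed to 0.850 to 1.32 and 1.28 to 1.79 CPM, with PECAM1 at 0.803 ± 0.213 and 1.01 ± 0.147 CPM (edgeR adjusted p = 0.656). The part of these marker sums in the results was not tested. On the second principal component (19.6% of the variance) vector replicate 2 (-16.6) and TFCP2L1 replicate 3 (-28.4) lay at one end, TFCP2L1 replicate 2 (25.9) at the other and the remaining libraries between 1.28 and 10.6. Vector replicate 2 and TFCP2L1 replicate 3 also had the highest shares of mitochondrially encoded reads, 6.72% and 7.59% against 5.13% to 5.80% in the others. Since a culture of dividing cells holds several phases of the cycle, a change in the share of cells in a phase and a change in RNA per cell cannot be told apart.

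The question put to the 8 members was which of them differed when TFCP2L1 was overexpressed. Of the 8, 2 fell (CDKN2B and CDKN1A), 2 rose (CDKN3 and CDKN2C) and 4 did not pass the test (CDKN1B, CDKN1C, CDKN2A and CDKN2D). The call of CDKN2C was lost in 5 of the 6 fits that leave out a library, which leaves 1 member called higher. The test was edgeR's quasi-likelihood F-test over all 14431 genes, where a gene is called if its Benjamini-Hochberg adjusted p is under 0.05, and it called 4.63% of all tested genes higher and 6.94% lower. These are 668 and 1002 genes, against 884 and 903 when libraries are scaled by their totals alone. The same 4 genes were the members whose 3 libraries of one group lay wholly apart from the 3 of the other, 2 above and 2 below, against 14.4% of tested genes wholly above and 15.6% wholly below. With 8 members, these counts describe the list and carry no test of the family as a whole. The median log2 fold change of the members was 0.00, and that of all tested genes 0.00.

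**Figure D1:**
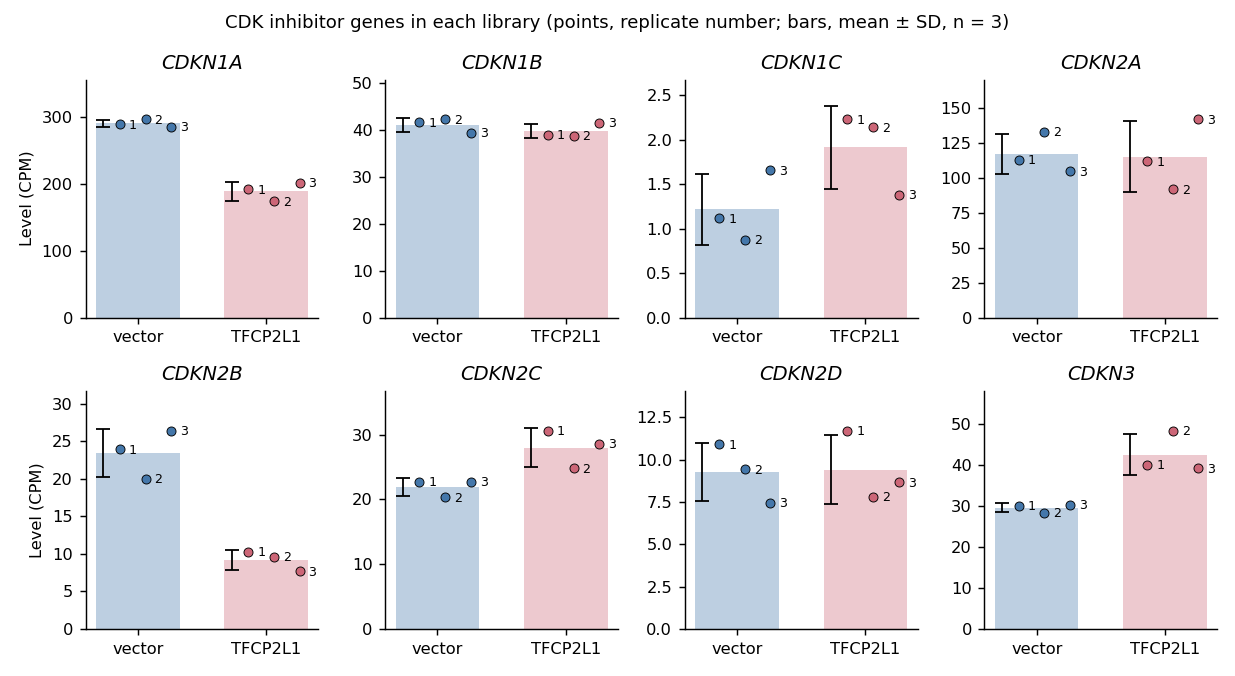
Level of each CDK inhibitor gene (y axis, CPM after TMM scaling, each panel from 0) in vector and TFCP2L1 cells; points are libraries with their replicate number, and bars with whiskers are the mean ± SD (n = 3). The groups lie apart for CDKN1A, CDKN2B, CDKN2C and CDKN3 and overlap for the other 4 genes.

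CDKN1A, which encodes p21, a broad inhibitor of cyclin-CDK complexes, was the most abundant member. It had 290, 297 and 286 CPM in vector replicates 1 to 3 and 192, 174 and 202 CPM in TFCP2L1 replicates 1 to 3. The vector libraries lay close together, and every TFCP2L1 library was below all of them. The mean fell from 291 ± 5.54 to 189 ± 13.8 CPM (SD, n = 3), a log2 fold change of -0.62 ± 0.08 (SE; 95% interval -0.78 to -0.46; edgeR adjusted p = 3.77e-05), or 1.54-fold lower. For CDKN1A and the other 3 called members p was 0.1 in the exact permutation test over samples (two-sided, on CPM), the lowest value that 2 groups of 3 can reach. CDKN1A (ENSG00000124762.13) lies on GRCh38 chromosome 6 from 36676460 to 36687339, plus strand. An antisense transcript, DINOL, covers 4.79% of its exon bases in GENCODE v29 and had 0 to 4 reads in each library.

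CDKN1B, which encodes p27, had 41.6, 42.2 and 39.4 CPM in vector libraries and 38.9, 38.7 and 41.5 CPM in TFCP2L1 libraries. The groups overlapped, and all 6 values lay close together. The log2 fold change was -0.05 ± 0.08 (SE; 95% interval -0.23 to 0.13; edgeR adjusted p = 0.781), so that a fold outside 0.855 to 1.09 lies beyond the interval. This was the narrowest interval among the members that were not called. CDKN1B (ENSG00000111276.10) lies on chromosome 12 from 12715058 to 12722371, plus strand.

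CDKN1C, which encodes p57 and is imprinted, with expression from the maternal copy, was the least abundant member. It had 42, 33 and 63 reads in vector libraries and 87, 84 and 53 reads in TFCP2L1 libraries. TFCP2L1 replicate 3 fell among the vector values, and the groups overlapped. The log2 fold change of 0.65 ± 0.33 (SE) had a 95% interval from -0.05 to 1.36 and an edgeR adjusted p of 0.236, so that neither no change nor a 2-fold rise lay outside it. CDKN1C (ENSG00000129757.13) lies on chromosome 11 from 2883213 to 2885773, minus strand.

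Among 7 tested neighbours of CDKN1C in the imprinted region of chromosome 11, 1 rose and 1 fell. Over all tested genes 4.63% were called higher and 6.94% lower. The growth factor gene IGF2 fell from 20 ± 2.53 to 5.45 ± 1.58 CPM (log2 fold change -1.87 ± 0.18; edgeR adjusted p = 4.52e-06). PHLDA2, imprinted together with CDKN1C, rose from 61.9 ± 8.5 to 108 ± 26.1 CPM (0.80 ± 0.18; edgeR adjusted p = 0.0329). PHLDA2 was no longer called when vector replicate 1 (0.109), vector replicate 3 (0.0543) or TFCP2L1 replicate 1 (0.0747) was left out. KCNQ1OT1, the antisense RNA that silences CDKN1C and part of the region, without IGF2, on the paternal copy, was at 19.3 ± 3.77 and 17.7 ± 0.728 CPM and was not called.

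CDKN2B, which encodes p15, an inhibitor known as a target of TGF-beta signalling, showed the largest difference of the 8 genes. It had 23.9, 20 and 26.4 CPM in vector libraries and 10.3, 9.64 and 7.67 CPM in TFCP2L1 libraries. The lowest vector library stood well above the highest TFCP2L1 library. The mean fell from 23.4 ± 3.22 to 9.21 ± 1.38 CPM (SD, n = 3), a log2 fold change of -1.35 ± 0.14 (SE; 95% interval -1.64 to -1.06; edgeR adjusted p = 5.99e-06), or 2.54-fold lower. It was below the 5th percentile of log2 fold changes of all tested genes, -0.74. CDKN2B (ENSG00000147883.10) lies on chromosome 9 from 22002903 to 22009363, minus strand.

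CDKN2A, whose single row sums transcripts of p16 and of p14ARF, which start at separate promoters and share later exons, was readily detected. It had 4254, 4991 and 3994 reads in vector libraries and 4381, 3602 and 5441 reads in TFCP2L1 libraries, or 113, 133 and 105 CPM and 112, 91.9 and 142 CPM. TFCP2L1 cells held both the highest and the lowest of the 6 values, so the groups overlapped fully. The log2 fold change was -0.02 ± 0.15 (SE; 95% interval -0.36 to 0.32; edgeR adjusted p = 0.959). In each group the highest value was in the library with the highest mitochondrial share, vector replicate 2 and TFCP2L1 replicate 3, and the part of that in the spread was not tested. Without TFCP2L1 replicate 3 the log2 fold change was -0.20 (edgeR adjusted p = 0.226), and without TFCP2L1 replicate 2 it was 0.12 (0.557), so that the sign turned with the library left out. CDKN2A (ENSG00000147889.17) lies on chromosome 9 from 21967753 to 21995301, minus strand. The reads cannot say which of the 2 proteins' transcripts they came from, since the table has 1 row for both.

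CDKN2A and CDKN2B are neighbours in the INK4 locus, and their RNAs did not move alike. The log2 ratio of CDKN2B to CDKN2A reads within a library, which does not depend on scaling, was -2.24, -2.73 and -1.99 in vector libraries and -3.44, -3.25 and -4.21 in TFCP2L1 libraries. Every TFCP2L1 library was below every vector library, with means of -2.32 ± 0.37 and -3.63 ± 0.51 (SD, n = 3) and a difference of -1.31. CDKN2B-AS1, the antisense RNA known as ANRIL that starts near CDKN2A and runs across CDKN2B, had means of 4.71 ± 0.729 CPM in vector and 4.56 ± 0.536 CPM in TFCP2L1 cells and was not called (edgeR adjusted p = 0.914). The log2 ratio of CDKN2B to CDKN2B-AS1 fell from 2.32 ± 0.36 to 1.01 ± 0.34, also with no overlap. For each of 4 such ratios, chosen after the values were seen, the exact two-sided permutation p was 0.1 and the Benjamini-Hochberg adjusted value 0.1, the smallest possible. In GENCODE v29 CDKN2B-AS1 shares 7.88% of the exon bases of CDKN2A and none of those of CDKN2B. Stretches of 50 bases found in both CDKN2A and CDKN2B transcripts made up 0.765% of those of CDKN2B.

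Other genes next to the INK4 locus were not called. Of 6 neighbours 5 were tested, and the sixth, ELAVL2, had 4 reads in all vector libraries together and 1 in those of TFCP2L1 cells. Of the 5 tested, 0 were called by edgeR, DESeq2 or limma-voom, and 0 had an unadjusted p under 0.05 in edgeR. Over all tested genes edgeR called 11.6% either way, and a list of 5 is too short to be set apart from that share. MTAP, the methylthioadenosine phosphorylase gene often deleted together with CDKN2A, was at 68.6 ± 1.85 CPM in vector and 75.4 ± 0.566 CPM in TFCP2L1 cells (log2 fold change 0.14 ± 0.07; edgeR adjusted p = 0.266). DMRTA1, on the far side of the locus, was at 3.20 ± 0.390 and 3.77 ± 1.19 CPM. Polycomb proteins and their opponents, which set the silencing of the locus, had 0 of 15 members called by edgeR, against 11.6% of all tested genes. In edgeR 2 of the 15 had an unadjusted p under 0.05. Among all 14431 tested genes that level reached at least to rank 3595 by p. By limma-voom 0 of the 15 were called. PHC2 alone was called higher by DESeq2 (adjusted p = 0.0279) and by edgeR with library totals alone (0.0429). PHC2 (278 ± 5.08 and 319 ± 7.70 CPM; edgeR adjusted p = 0.0751) and EZH2 (30.9 ± 3.01 and 35.8 ± 2.18 CPM; 0.195) had the smallest p of that list.

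CDKN2C, which encodes p18, had 22.7, 20.3 and 22.7 CPM in vector libraries and 30.6, 24.8 and 28.6 CPM in TFCP2L1 libraries. All TFCP2L1 libraries were above all vector libraries, with TFCP2L1 replicate 2 close to the vector values. The mean rose from 21.9 ± 1.38 to 28 ± 2.97 CPM (SD, n = 3), a log2 fold change of 0.36 ± 0.11 (SE; 95% interval 0.13 to 0.58; edgeR adjusted p = 0.0398). The call lay near the threshold. Leaving out vector replicate 1 (edgeR adjusted p = 0.0984), 2 (0.142) or 3 (0.104), or TFCP2L1 replicate 1 (0.156) or 3 (0.0513), ended it, while it held on leaving out TFCP2L1 replicate 2 (0.0134). CDKN2C (ENSG00000123080.10) lies on chromosome 1 from 50960745 to 50974633, plus strand.

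CDKN2D, which encodes p19 of the INK4 family, had 10.9, 9.42 and 7.46 CPM in vector libraries and 11.7, 7.81 and 8.66 CPM in TFCP2L1 libraries. The groups overlapped, with a coefficient of variation of 18.6% in vector and 21.6% in TFCP2L1 cells, against a common biological coefficient of variation of 10.8% over all tested genes. The log2 fold change was 0.02 ± 0.17 (SE; 95% interval -0.35 to 0.39; edgeR adjusted p = 0.966). CDKN2D (ENSG00000129355.6) lies on chromosome 19 from 10566462 to 10569059, minus strand.

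CDKN3, a phosphatase that removes the activating phosphate from CDK2 and CDK1 and whose RNA is known to peak late in the division cycle, rose. It had 30.0, 28.3 and 30.3 CPM in vector libraries and 40.0, 48.3 and 39.2 CPM in TFCP2L1 libraries. The vector libraries were nearly equal, and TFCP2L1 replicate 2 stood highest. The mean rose from 29.5 ± 1.08 to 42.5 ± 5.05 CPM (SD, n = 3), a log2 fold change of 0.53 ± 0.10 (SE; 95% interval 0.32 to 0.73; edgeR adjusted p = 0.00202), or 1.44-fold. CDK1, its substrate, was at 103 ± 1.18 and 120 ± 8.99 CPM and was not called (edgeR adjusted p = 0.0754), though it was called higher without TFCP2L1 replicate 3 (0.0201) and with library totals alone (0.0457). The log2 ratio of CDKN3 to CDK1 reads was -1.78, -1.88 and -1.75 in vector libraries and -1.59, -1.41 and -1.50 in TFCP2L1 libraries, a difference of 0.30 with no overlap. CDKN3 (ENSG00000100526.19) lies on chromosome 14 from 54396849 to 54420218, plus strand.

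**Figure D2:**
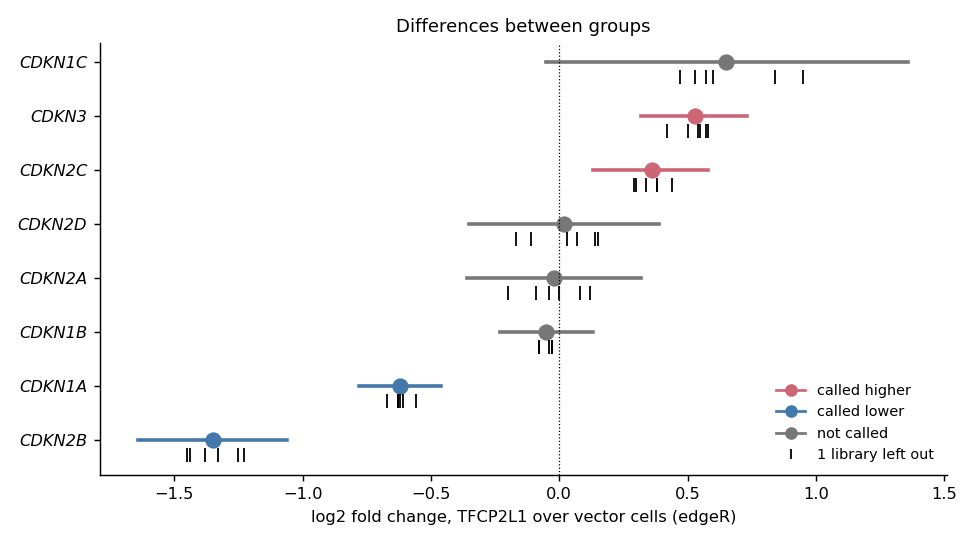
Difference of each CDK inhibitor gene between the groups (x axis, log2 fold change of TFCP2L1 over vector cells from edgeR; dots with lines, estimate and 95% interval; ticks, the estimate with 1 library left out). CDKN2B (-1.35) and CDKN1A (-0.62) lie left of 0 and CDKN3 (0.53) and CDKN2C (0.36) right of it whichever single library is left out, while the ticks of CDKN2A and CDKN2D fall on both sides.

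Levels of different genes were compared per gene length, as FPKM (reads scaled by gene length and library total). In vector cells CDKN1A stood first at 96.0 ± 1.37 FPKM (SD, n = 3), above 96.3% of tested genes. CDKN2A (25.0 ± 2.88), CDKN3 (17.5 ± 0.725) and CDKN1B (16.9 ± 0.539) followed in FPKM. CDKN3 and CDKN1B overlapped between libraries in this order. CDKN2C (9.91 ± 0.672), CDKN2D (6.43 ± 1.19) and CDKN2B (5.83 ± 0.826) came next in FPKM, with CDKN2D and CDKN2B overlapping, and CDKN1C was last at 0.622 ± 0.208. In TFCP2L1 cells CDKN1A was still first at 63.6 ± 4.66 FPKM. CDKN3 (25.7 ± 3.0 FPKM) and CDKN2A (25.2 ± 5.42) overlapped between libraries, and CDKN2B, at 2.33 ± 0.364 FPKM, lay below CDKN2D (6.65 ± 1.49) with no overlap.

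**Figure D3:**
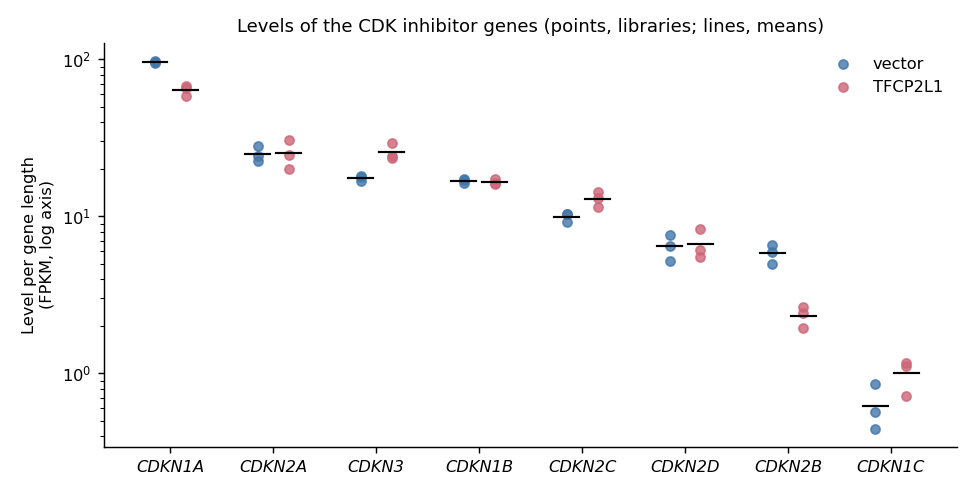
Level per gene length of the CDK inhibitor genes (y axis, deposited FPKM on a log axis), ordered by the mean in vector cells; points are libraries and lines are group means (n = 3). CDKN1A leads in both groups, at 96.0 and 63.6 FPKM, and CDKN2B moves from 5.83 to 2.33 FPKM.

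Summed over the 7 inhibitors that bind CDKs or their cyclin complexes (all members but CDKN3), the level was 161 ± 3.77 FPKM in vector and 128 ± 11.8 FPKM in TFCP2L1 cells (SD, n = 3). The CDKN2A row enters whole, with transcripts of both p16 and p14ARF, so the part of it that encodes the INK4 protein p16 is not known. The 3 vector libraries, from 157 to 164 FPKM, were all above the 3 TFCP2L1 libraries, from 115 to 137 FPKM. CDKN1A made up 59.8% ± 0.659 of that sum in vector and 49.7% ± 0.996 in TFCP2L1 cells. Its own fall, from 96.0 to 63.6 FPKM, held nearly all of the difference between the sums. The share of CDKN2B went from 3.64% ± 0.596 to 1.84% ± 0.378 and that of CDKN2C from 6.17% ± 0.534 to 10.1% ± 0.608. Since shares add up to a fixed total, the larger shares of CDKN1B (10.5% ± 0.110 and 13% ± 0.897) and CDKN2A (15.5% ± 1.46 and 19.5% ± 2.63) in TFCP2L1 cells stand beside the smaller one of CDKN1A, and neither gene was called on the CPM scale. The log2 ratio of CDKN1A to CDKN1B reads went from 2.83 ± 0.03 to 2.25 ± 0.07. The difference was -0.58, with no overlap between groups. This ratio was chosen after the values were seen. With CDKN1B at a log2 fold change of -0.05, the ratio restates the fall of CDKN1A and adds no separate support.

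**Figure D4:**
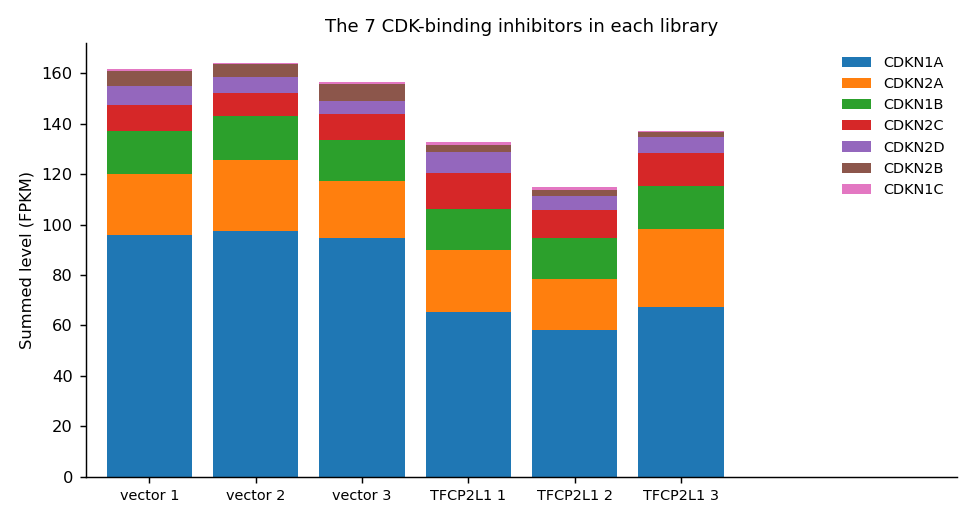
Summed level of the 7 CDK-binding inhibitors in each library (y axis, deposited FPKM; colours, genes). The CDKN2A block includes transcripts of p14ARF, which its row does not separate from those of p16. The 3 vector libraries reach 157 to 164 FPKM and the 3 TFCP2L1 libraries 115 to 137 FPKM. CDKN1A is the largest block in all 6 and holds nearly all of the difference between the group means.

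CDK2, CDK4 and CDK6, which the CIP/KIP and INK4 proteins bind, were not called, and the B-type cyclins CCNB1 and CCNB2 rose. Of 12 tested kinases and cyclins 2 rose and 0 fell, against 4.63% and 6.94% of all tested genes. Their median log2 fold change was 0.18, against 0.00 for all tested genes. In 7 of the 12 all TFCP2L1 libraries were above all vector libraries, and in 1 all were below. Over all tested genes these shares were 14.4% and 15.6%. Of the kinases and cyclins 6 had an unadjusted p under 0.05. Among all 14431 tested genes that level reached at least to EZH2, at rank 3595 by p (edgeR unadjusted p = 0.0486). CDK4 had 160 ± 14.3 CPM in vector and 157 ± 12.2 CPM in TFCP2L1 cells, CDK6 at 82.4 ± 4.0 and 79.1 ± 6.35 CPM, and CDK2 at 73.8 ± 4.24 and 85.6 ± 5.51 CPM. CCNB2 (log2 fold change 0.61 ± 0.08; edgeR adjusted p = 9.57e-05) and CCNB1 (0.36 ± 0.08; 0.0100), the cyclins of mitosis, were the 2 that passed the test. CCNB1 was not called on leaving out vector replicate 2 (0.0556), vector replicate 3 (0.0579) or TFCP2L1 replicate 1 (0.0525). CCNA1, an A-type cyclin, was at 7.10 ± 1.13 and 9.92 ± 1.14 CPM (edgeR adjusted p = 0.0543) and was called higher without TFCP2L1 replicate 2 (0.0472), with library totals alone (0.0421), with no filter (0.0244) and by DESeq2 (0.0396). CCND1, the D-type cyclin with the most reads, was at 532 ± 6.72 and 482 ± 18.5 CPM and was not called (edgeR adjusted p = 0.228).

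The RB and E2F list, downstream of the kinases, had a median log2 fold change of 0.05. In it 3 of 13 genes rose and 0 fell, against 4.63% and 6.94% of all tested genes. They were E2F8 (0.52 ± 0.12; edgeR adjusted p = 0.0105) and E2F7 (0.39 ± 0.09; 0.00638), the atypical E2F factors, which repress, and RBL1 (0.30 ± 0.09; 0.0437), the pocket protein p107. Without vector replicate 1 none of the 3 was called (E2F8 0.0696, E2F7 0.0566, RBL1 0.145). Without vector replicate 3 the calls of E2F8 (0.0750) and RBL1 (0.152) were lost, and RBL1 was also lost without vector replicate 2 (0.110), TFCP2L1 replicate 1 (0.0945) or TFCP2L1 replicate 3 (0.0937), and with no filter on low counts. RB1 was at 108 ± 1.60 and 112 ± 6.69 CPM and was not called. RBL2, the pocket protein p130, was called higher with library totals alone (edgeR adjusted p = 0.0491). A further list held the kinases and phosphatases that set the inhibitory phosphate on CDKs, with the CDK-activating kinase. Of its 8 genes 0 were called by edgeR, DESeq2 or limma-voom, while edgeR called 11.6% of all tested genes either way. In edgeR 2 of the 8 had an unadjusted p under 0.05, a level that reached at least to rank 3595 among all 14431 tested genes. In 4 of the 8 all TFCP2L1 libraries were above all vector libraries, and in 1 all were below. Over all tested genes these shares were 14.4% and 15.6%. CDC25C (10.3 ± 0.252 and 12.8 ± 0.923 CPM; edgeR adjusted p = 0.113) and CCNH (38.9 ± 1.68 and 45.1 ± 2.77 CPM; 0.126) had the smallest p of these 8. PKMYT1 was called higher without TFCP2L1 replicate 2 (edgeR adjusted p = 0.0480).

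Genes that act on the inhibitors themselves were mostly not called. Ubiquitin ligase parts and cofactors that turn over p21, p27 and p57 had a median log2 fold change of 0.04. In that list 1 of 16 genes rose and 0 fell, against 4.63% and 6.94% of all tested genes. That gene was CDC20, an activator of the anaphase-promoting complex (0.33 ± 0.08; edgeR adjusted p = 0.0181), and it was not called on leaving out vector replicate 1 (0.0765), vector replicate 3 (0.107) or TFCP2L1 replicate 1 (0.0606). SKP2, the receptor that marks p27 for destruction, was at 37.7 ± 4.29 and 46.2 ± 5.11 CPM (edgeR adjusted p = 0.0800). SKP2 was called higher without vector replicate 2 (0.0342), without TFCP2L1 replicate 2 (0.0334) and with no filter (0.0245), and RNF123 was called lower without TFCP2L1 replicate 1 (0.0350). Transcription regulators of CDKN1A and CDKN1B, listed with proteins that act on such regulators, had a median log2 fold change of 0.05. Of the 14 tested genes of that list 3 fell and 0 rose, against 6.94% and 4.63% of all tested genes. MDM2, which encodes a ubiquitin ligase and no transcription factor, fell from 328 ± 17.9 to 244 ± 17.1 CPM (-0.43 ± 0.08; edgeR adjusted p = 0.00164). FOXO3, an activator of CDKN1B, had a log2 fold change of -0.33 ± 0.08 (edgeR adjusted p = 0.0119). FOXO3 was not called on leaving out vector replicate 3 (0.0874) or TFCP2L1 replicate 1 (0.0527). KLF4, an activator of CDKN1A, had a log2 fold change of -0.29 ± 0.09 (edgeR adjusted p = 0.0423, lost in 4 of the 6 fits without a library, with the highest value of 0.206 without vector replicate 1, and lost with library totals alone). KLF6 was called lower without TFCP2L1 replicate 3 (edgeR adjusted p = 0.00632).

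In the SMAD pathway, through which TGF-beta is known to act on CDKN2B, the median log2 fold change was -0.20. Of its 12 tested genes 2 fell and 0 rose, against 6.94% and 4.63% of all tested genes. In 4 of the 12 all TFCP2L1 libraries were below all vector libraries, and in 1 all were above. Over all tested genes these shares were 15.6% and 14.4%. An unadjusted p under 0.05 in edgeR was reached by 7 of the 12. That level reached at least to rank 3595 among all 14431 tested genes. A link of these genes to CDKN2B was not tested. SMAD7, an inhibitor of the pathway that is itself induced by it, fell from 49.0 ± 3.37 to 29.5 ± 1.47 CPM (-0.73 ± 0.09; edgeR adjusted p = 4.11e-05). ID1, a target of SMAD signalling, fell from 55.5 ± 3.73 to 42.3 ± 4.32 CPM (-0.39 ± 0.09; edgeR adjusted p = 0.0113). ID1 was not called without vector replicate 1 (edgeR adjusted p = 0.0761) or with a replicate block (0.0517). SMAD3 was at 172 ± 7.48 and 195 ± 12.3 CPM, TGFBR2 at 465 ± 3.94 and 467 ± 18.7 CPM, and neither was called. Without TFCP2L1 replicate 3 ID2 was called lower as well (edgeR adjusted p = 0.00241), and without TFCP2L1 replicate 2 SMAD2 was called lower (0.0412) and TGFB1 higher (0.0400). With no filter ID2 (0.0379) and TGFB1 (0.0177) were also called.

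**Figure D5:**
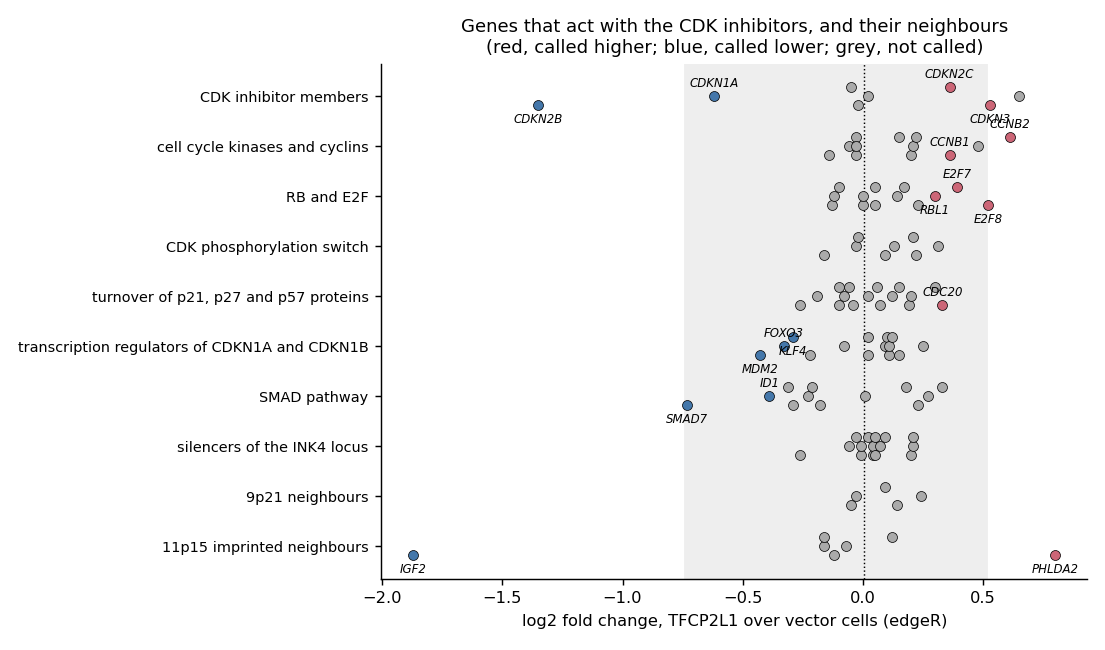
Difference of each tested gene in lists of genes that act with the CDK inhibitors or neighbour them (x axis, log2 fold change of TFCP2L1 over vector cells from edgeR; rows, lists; red and blue, called higher and lower; grey, not called). The shaded band spans the 5th to the 95th percentile of all tested genes, -0.74 to 0.51. IGF2 (-1.87) and CDKN2B (-1.35) lie left of it. PHLDA2 (0.80), CDKN1C (0.65, not called), CCNB2 (0.61), CDKN3 (0.53) and E2F8 (0.52) lie beyond its right edge.

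Across the 6 libraries, the genes whose log2 CPM followed each called member most closely, among 9427 genes with a mean of at least 10 CPM, were SLCO2B1 and MCAM for CDKN1A (Pearson r 0.9992 and 0.9988), DKK3 and EFR3B for CDKN2B (0.9982 and 0.9967), TIMM44 and PPP1R9B for CDKN2C (0.9978 and 0.9950), and PLAA and POLR3A for CDKN3 (0.9987 and 0.9966). These are descriptions over 6 points that share the 2 groups, and the best of 9427 genes can reach a high value without any link to the member.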

How the data were processed

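RNA-seq of 6 TPC1 libraries was used, 3 vector and 3 TFCP2L1. The authors deposited raw read counts per gene symbol, and FPKM values, which are the deposited counts scaled by library total and by 1 length per gene (the implied length varied by at most 0.000115% between libraries). Per the labels' protocols, RNA was extracted with TRIzol. Per the submitters' processing notes, fastp, HISAT2, HTSeq and GRCh38.p13 were used. Versions, annotation and strand setting were not given in the sources used here. Sense and antisense reads could therefore not be told apart.

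Counts were tested with edgeR 4.0.16 (R 4.3.3): filterByExpr, TMM scaling, robust quasi-likelihood F-test, two-sided, in 1 fit of all 6 libraries, with Benjamini-Hochberg adjustment over all 14431 tested genes. The SE is the log2 fold change over the square root of F. CPM are on the TMM scale. Alternatives were DESeq2 1.42.0 and its size factors, library totals alone, no filter, limma-voom (limma 3.58.1), non-robust dispersion, a replicate block and leaving out each library. On simulated counts of 14235 genes the same test recovered 30% of genes changed 1.3-fold and 68% at 1.5-fold, and 4.29% of its calls were false. Those counts were drawn from the spread fitted here, with few genes changed, while 11.6% of tested genes were called in the data. They check that the test runs as intended, and these shares need not hold for these libraries. Replicates differed by more than sampling noise (chi-square per gene 7.80 to 45.5), so none was a copy.

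The members and lists were chosen with earlier results of these data known. Named in the text are all members and, of each list, the called genes in order of change, at most 4 (in a list with under 2 called, the 2 genes of lowest p). CDK1, CDK2, CDK4, CDK6, CCND1, RB1, SMAD3, TGFBR2, KCNQ1OT1 and CDKN2B-AS1 were named beyond that rule, after their values were seen, as were ELAVL2 and genes called only under an alternative. Marker genes named beyond it show the check of the cell type. Positions come from GENCODE v29 (GRCh38), promoters from RefSeq (GRCh38.p14).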

Additional observations from a re-analysis of the deposited data

How the results depend on the processing

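CDKN1A, CDKN2B and CDKN3 kept their direction and their call under all 13 alternatives, 6 of which leave out a library; log2 fold changes ran from -0.67 to -0.56, -1.45 to -1.23 and 0.42 to 0.58 with 1 library left out. CDKN2C kept its direction but not its call: its log2 fold change ran from 0.29 to 0.44 with 1 library left out, and the call was lost in 5 of these 6 fits. With a replicate block CDKN2C was at 0.35 (edgeR adjusted p = 0.0728), the members called higher were 1 in place of 2, and all genes called were 328 higher and 649 lower in place of 668 and 1002. Same-numbered samples did not deviate together (correlations of deviations 0.0721, -0.161 and -0.124), so the numbers are not taken as pairs. With 1 library left out, 1 to 2 members were called higher and 2 lower, and 298 to 766 genes were called higher and 621 to 1106 lower, the fewest without vector replicate 1 or 3. CDKN2A had log2 fold changes from -0.20 to 0.12 and CDKN2D from -0.17 to 0.15 with 1 library left out; CDKN2A was 0.01 with library totals alone, 0.08 without vector replicate 2, 0.12 without TFCP2L1 replicate 2 and 0.00 without TFCP2L1 replicate 1, and CDKN2D was -0.11 without vector replicate 3 and -0.17 without TFCP2L1 replicate 1. Leaving out vector replicate 2 and TFCP2L1 replicate 3 together, chosen after seeing the data, gave CDKN2C 0.29 (edgeR adjusted p = 0.163) and 1 member called higher. Scaling by library totals alone called 884 genes higher and 903 lower, or 49.5% of calls higher in place of 40%. No scaling moved the median log2 fold change of all genes by over 0.1. The cause of these shifts was not tested. Depth limits CDKN1C most, with 33 to 87 reads per library.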
